A study of Homo sapiens with 4 samples.

Results

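The CXC chemokines examined here were CXCL1, CXCL2, CXCL3, CXCL5, CXCL6, CXCL8, CXCL10, CXCL11, CXCL12 and CXCL16, measured in the established line Hs746T, derived from a gastric carcinoma. Every array probe, other than controls, that a RefSeq accession assigned to these genes was taken, which gave 16 of 34127 probes for 10 of 19740 named genes. The genes were chosen by name and not by a threshold on their values, though with earlier results of these data known. Total RNA was profiled on 4 single-colour Agilent human expression arrays on a single slide, with 1 array each for DMSO (the solvent control), PHA665752 (a small-molecule inhibitor of the MET receptor tyrosine kinase), sc siRNA (a scrambled control) and MET siRNA. All cells shared a MET gene that is amplified and carries an exon-skipping mutation. By the study's methods the MET siRNA was a single sequence, introduced by lipofection as was sc siRNA, and the inhibitor's dose and time on the array were not given in the sources used here. There were no replicate arrays, so the differences below have no test and no error between cultures.

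CXC chemokines are small secreted proteins that guide leukocytes along concentration gradients by binding G protein-coupled receptors. CXCL1, CXCL2, CXCL3, CXCL5, CXCL6 and CXCL8 (interleukin-8) carry the ELR motif, bind CXCR1 or CXCR2 and attract neutrophils, and their genes are classical targets of NF-kappaB. CXCL10 and CXCL11 are induced by interferons and attract activated T cells through CXCR3, CXCL12 is the homeostatic ligand of CXCR4, and CXCL16 is made as a membrane-bound protein that binds CXCR6 and is shed by ADAM proteases.

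Signals below are the deposited intensities of a probe before scaling between arrays. Ratios are differences of log2 signals after the 75th percentile of each array was subtracted, so a log2 ratio of 1 is a 2-fold difference. Ratios were taken within a probe, and signal levels were compared between probes only to choose which probe represents a gene. A probe not well above local background on 1 array of a pair gave a bound against the lowest signal that was well above background there, which lay between 10.2 and 17.4 across the arrays. Between repeated spots of a probe on an array, the SD of a log2 ratio of single spots was 0.255 for signals of 10 to 50, 0.107 for 50 to 200, 0.0783 for 200 to 1000 and 0.0665 above 1000. This noise does not cover differences between cultures, and in bulk RNA fewer expressing cells and less RNA per cell cannot be told apart.

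Between 61.1 and 68.2% of probes were well above background on an array, the lowest share being that with MET siRNA, and no spot was saturated. Outlier spots made up 5.58% on the MET siRNA array against 1.69 to 2.21% on the others. The targeted gene, MET, had signals of 221451 in DMSO, 100492 in PHA665752, 190010 in sc siRNA and 77853 in MET siRNA cells. It was 2.52-fold lower with MET siRNA than with sc siRNA (log2 ratio -1.33) and 1.9-fold lower with PHA665752 than with DMSO (-0.93). All 5 epithelial markers were well above background on at least 1 array, with EPCAM at 1958 to 2709 and CDH1 at 10.4 to 33.0, as were 4 of 4 measured mesenchymal markers. Of the leukocyte markers, CD3E was not well above background on any array, while PTPRC lay at 22.7 to 37.8. ITGAM lay at 56 to 74, CD14 at 113 to 140, FCER1G at 1243 to 2299 and CD68 at 7212 to 12170. Among 6 measured leukocyte markers, 5 were well above background, among 4 endothelial markers 3 were, and among 3 measured neutrophil markers 1 (CSF3R) was, with S100A8 and S100A9 not. None of the leukocyte or neutrophil markers passed 2-fold in any pair, whereas the endothelial markers PECAM1 and VWF (log2 ratios -2.39 and 2.77) and the mesenchymal markers FN1 and SPARC (1.96 and 1.33) did with PHA665752. VWF was also higher with MET siRNA (1.13), and CDH1 was lower with sc siRNA than with DMSO (-1.08). The part of these shifts in the chemokine values was not tested.

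Of the 10 genes, 9 had a probe well above background on at least 1 array. They comprised 12 of the 16 probes, and 9 probes were well above background on all 4 arrays. The remaining gene, CXCL6, had signals of 2.34, 2.53, 3.25 and 3.60 in the order DMSO, PHA665752, sc siRNA and MET siRNA, and gave no ratio. The 3 comparisons sorted the measured genes into different sets. With PHA665752, CXCL1, CXCL3 and CXCL8 were lower by more than 2-fold. With MET siRNA only CXCL10, among the 10 genes, passed 2-fold, upward. With sc siRNA against DMSO, CXCL8, CXCL10 and CXCL11 were higher by more than 2-fold.

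**Figure D1:**
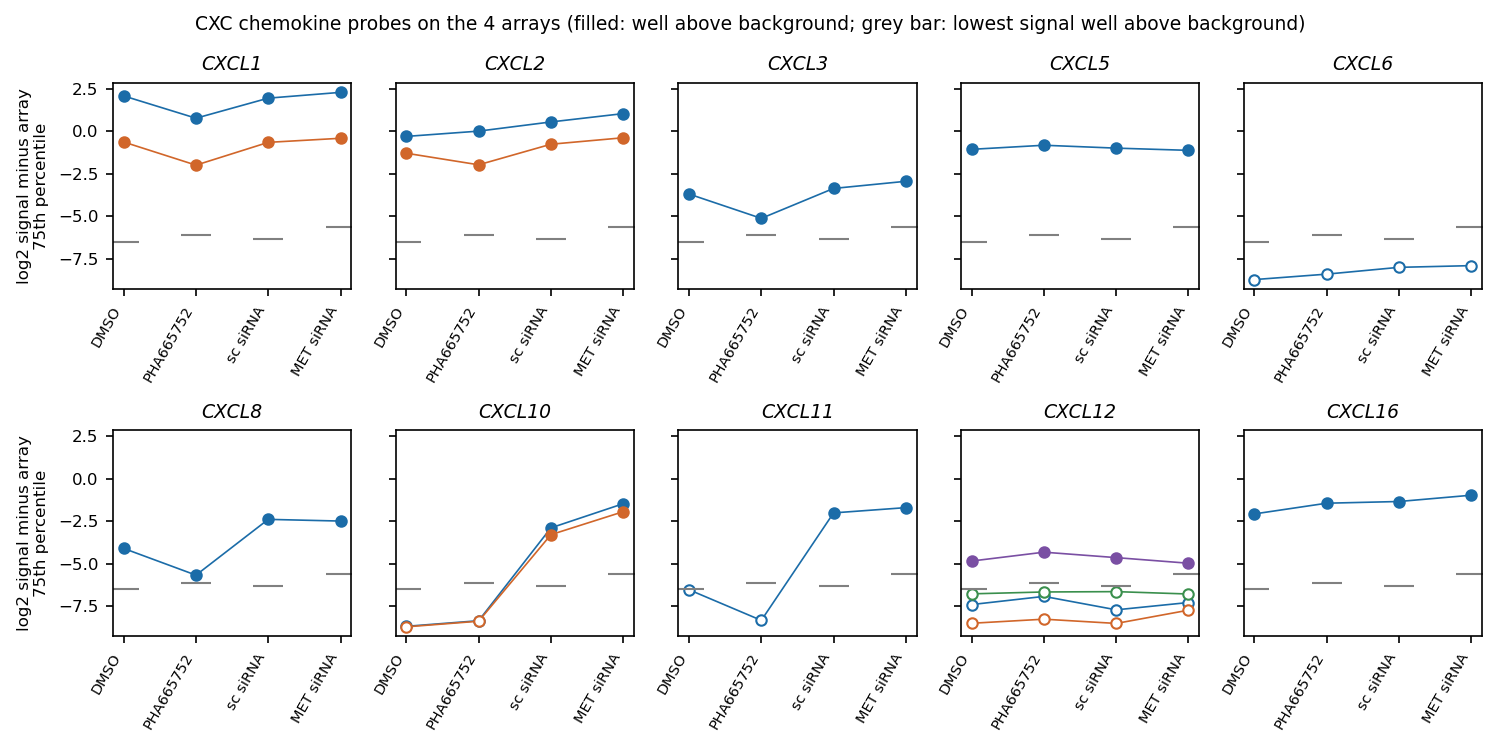
Level of each CXC chemokine probe on the 4 arrays, as log2 signal after subtraction of each array's 75th percentile (y axis); colours separate probes of a gene, lines join the values of a probe, filled points are well above background and grey bars mark the lowest signal well above background on that array. CXCL1, CXCL3 and CXCL8 dip with PHA665752, and CXCL10 and CXCL11 are filled only on the siRNA arrays.

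The neutrophil-attracting chemokines divided under PHA665752. CXCL1 was measured by 2 probes. Probe A_23_P7144 (NM_001511) gave signals of 4197 in DMSO, 1458 in PHA665752, 3206 in sc siRNA and 4200 in MET siRNA cells. The inhibitor array was the low one, and the other 3 lay close together. Its log2 ratio of PHA665752 to DMSO was -1.31, or 2.48-fold lower, which placed it at rank 1046 from the largest fall among 23471 probes with a ratio. The second probe, A_33_P3330264, had signals of 642, 214, 530 and 645 in the same order and a log2 ratio of -1.37 (2.58-fold lower). The CXCL1 probes thus differed by less than the spot noise of 0.0783, and both stayed past 2-fold in all 9 alternatives, at -1.56 to -1.26 and -1.61 to -1.04.

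CXCL3, a close relative of CXCL1, gave signals of 76.9 in DMSO, 24.6 in PHA665752, 80.7 in sc siRNA and 112 in MET siRNA cells (probe A_24_P183150, NM_002090). As for CXCL1, the inhibitor array was the low one, but the other arrays lay further apart, with MET siRNA the highest. CXCL3 was 2.69-fold lower with PHA665752 (log2 ratio -1.43). CXCL8, the prototype neutrophil attractant, gave signals of 57.4 in DMSO, 16.6 in PHA665752, 158 in sc siRNA and 152 in MET siRNA cells (probe A_32_P87013, NM_000584). Here the arrays formed 3 levels, with both siRNA arrays above DMSO and the inhibitor array below it. CXCL8 was 2.98-fold lower with PHA665752 (log2 ratio -1.57, rank 690 from the largest fall), at a spot noise of 0.255. With PHA665752 the signals of CXCL3 and CXCL8, 24.6 and 16.6, lay near the lowest well above background there, 12.3. With normexp background correction, which starts from the median spot signal and adds an offset of 50, CXCL3 came to -0.41 and CXCL8 to -0.31, inside 2-fold. In the other 8 alternatives both stayed past it.

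CXCL2 and CXCL5 did not share this pattern. The CXCL2 probes disagreed. A_23_P315364 (NM_002089) had signals of 803, 862, 1220 and 1761 in the same order of arrays, and A_24_P257416 (NM_002089) had 405, 218, 490.0 and 660.4. Both were highest with MET siRNA, but the inhibitor lay above DMSO by the first (log2 ratio 0.32) and below it by the second (-0.68). The opposite signs held in all 9 alternatives, at 0.070 to 0.36 against -0.93 to -0.53, so CXCL2 had no settled direction with PHA665752. CXCL5 had signals of 476, 484, 418 and 395 in the same order (probe A_24_P277367, NM_002994), which made it the flattest of the neutrophil attractants measured. Its log2 ratio with PHA665752 was 0.24, and -0.0066 when arrays were scaled by the 50th percentile.

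In total 4 of the 16 probes were lower by more than 2-fold with PHA665752, for 3 of 10 genes, and 0 were higher. Over all 34127 probes, 5.11% were lower and 8.82% higher by more than 2-fold. The median log2 ratio over the 7 chemokine genes with a value was 0.24, beside 0.075 over 14322 named genes, and 4 of the 7 lay above 0. CXCL2 is among the 4 by the probe that represents it (0.32) and would not be by its other probe (-0.68). That median was -0.0066 with 50th percentile scaling and -0.18 when all probes of a gene were summarised by their median. The remaining measured genes were CXCL12 and CXCL16, at log2 ratios of 0.52 and 0.63.

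**Figure D2:**
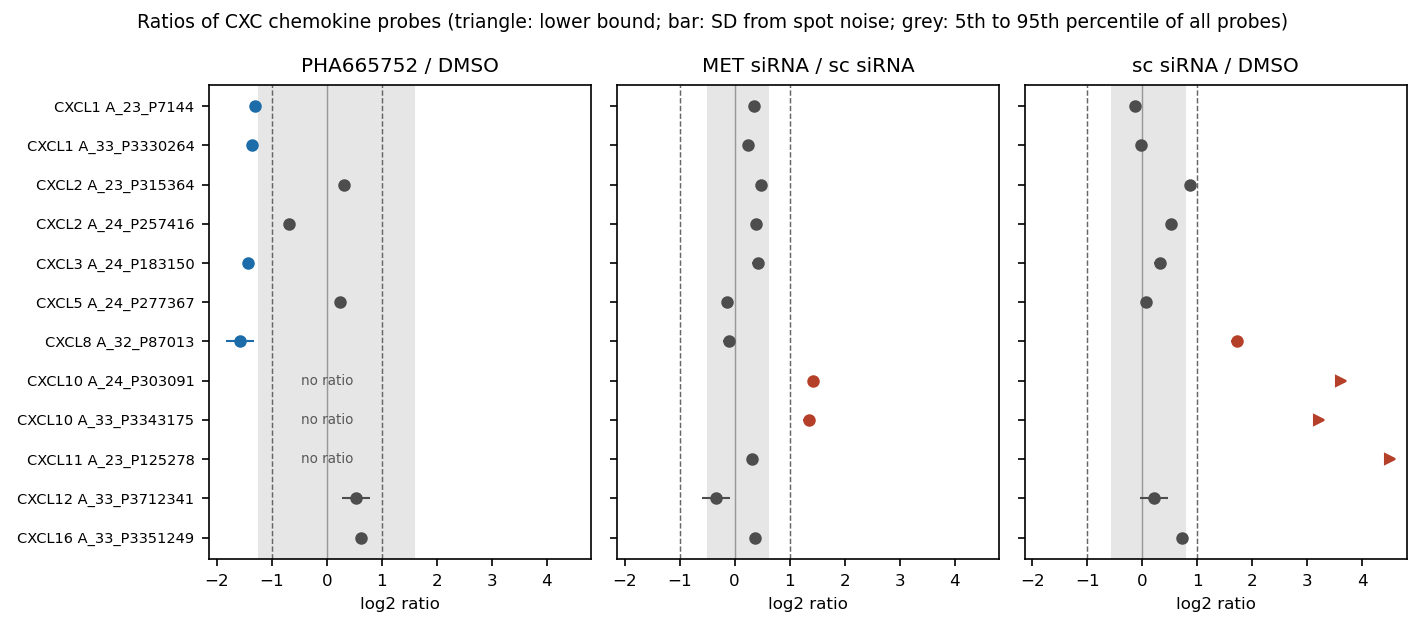
Log2 ratio (x axis) of each CXC chemokine probe with a value in at least 1 of the 3 pairs; dashed lines mark 2-fold, grey shading the 5th to 95th percentile of all probes with a ratio, triangles lower bounds and bars the SD from spot noise. With PHA665752 the points of CXCL1, CXCL3 and CXCL8 lie left of the shading, which begins at -1.228, and with MET siRNA only the CXCL10 points lie right of it, beyond 0.605.

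The promoters of the neutrophil-attracting genes are shown because CXCL1, CXCL3 and CXCL8, which were lower with the inhibitor, and CXCL5, which was not, share a motif there. Each line holds the 150 bases before the annotated start, 5′ to 3′ on the gene's strand, from RefSeq on GRCh38.p14. CXCL1 is chr4:73869243-73869392 on the plus strand, CXCL3 is chr4:74038690-74038839 on the minus strand, CXCL5 is chr4:73998678-73998827 on the minus strand, and CXCL8 is chr4:73740419-73740568 on the plus strand. Capitals mark matches to the NF-kappaB consensus, to GGAATTTCC (the NF-kappaB site known from CXCL8) or to TGANTCA (AP-1), searched on both strands.
CXCL1: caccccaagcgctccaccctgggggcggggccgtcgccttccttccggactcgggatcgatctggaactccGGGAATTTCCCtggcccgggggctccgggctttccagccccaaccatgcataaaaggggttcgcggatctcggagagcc
CXCL3: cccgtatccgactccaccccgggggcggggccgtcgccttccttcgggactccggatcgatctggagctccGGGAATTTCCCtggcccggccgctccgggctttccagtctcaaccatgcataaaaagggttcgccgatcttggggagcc
CXCL5: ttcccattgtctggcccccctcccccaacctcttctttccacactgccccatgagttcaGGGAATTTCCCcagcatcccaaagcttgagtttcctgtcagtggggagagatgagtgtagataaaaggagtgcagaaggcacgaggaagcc
CXCL8: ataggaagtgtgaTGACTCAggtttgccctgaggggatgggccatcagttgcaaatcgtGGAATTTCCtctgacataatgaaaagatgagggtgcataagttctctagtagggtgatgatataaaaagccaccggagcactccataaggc
The letters GGAATTTCC began 78 bases before the start in CXCL1 and CXCL3, 90 in CXCL5 and 91 in CXCL8. They overlap the consensus in all of these but CXCL8, which instead has an AP-1 match that begins at 137. Position by position and without gaps, CXCL1 and CXCL3 shared 129 of 150 bases (86.0%), against 41 of 150 (27.3%) for CXCL1 and CXCL5.

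Of the 10 genes, 9 were in the promoter table and CXCL16 was not. In the 250 bases before the start, GGAATTTCC on either strand was present in 8 of these 9, all but CXCL12, beside 0.413% of 35116 promoters in the table. The NF-kappaB consensus, which overlaps it, was present in 7 of 9, beside 9.96% of all. The motif was thus present in the flat CXCL5 as well as in the genes that were lower with PHA665752. A match is a run of letters in this window, and no binding was measured. GGAATTTCC was taken from the known CXCL8 site, so the CXCL8 match was fixed in advance. The chemokine promoters are also not independent of each other. CXCL1 shared 86.0% of 150 bases with CXCL3 and 63.3% with CXCL2.

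**Figure D3:**
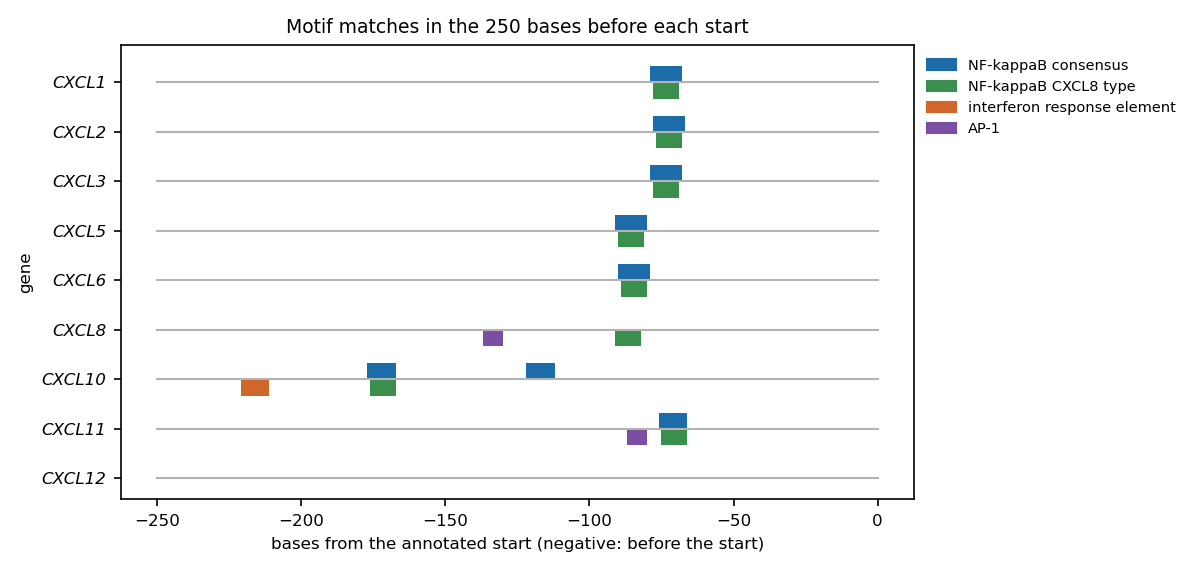
Matches to 4 motifs (coloured boxes) in the 250 bases before the annotated start of 9 CXC chemokine genes, by distance from the start in bases (x axis); AP-1, GGAATTTCC and interferon response element boxes are drawn below the line and the NF-kappaB consensus above it. CXCL1, CXCL2, CXCL3, CXCL5 and CXCL6 hold overlapping NF-kappaB matches within 91 bases of the start, and the interferon response element is seen in CXCL10.

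Subunits, inhibitors and feedback genes of NF-kappaB lay on both sides of 0 with PHA665752. Among 13 of 15 such genes with a value, 2 were higher and 1 was lower by more than 2-fold (15.4% and 7.69%, near the 10.0% and 6.14% of all named genes), with a median log2 ratio of 0.085. The gene that was lower was TNFAIP3 (A20, a deubiquitinase that terminates NF-kappaB signalling), with signals of 2006 in DMSO, 446 in PHA665752, 3926 in sc siRNA and 3185 in MET siRNA cells and a log2 ratio of -1.96. NFKBIZ, a nuclear cofactor of NF-kappaB, was higher with the inhibitor (log2 ratio 1.41), as was the related BCL3 (1.17). The subunits NFKB1 and RELA were near 0, at -0.16 and 0.09. With MET siRNA none of the 13 passed 2-fold in either direction (median 0.19). With sc siRNA against DMSO 2 were higher, BIRC3 (3.09) and TNFAIP3 (1.22), and the median was 0.30. That is 15.4% of the 13, beside 2.2% of all named genes.

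**Figure D4:**
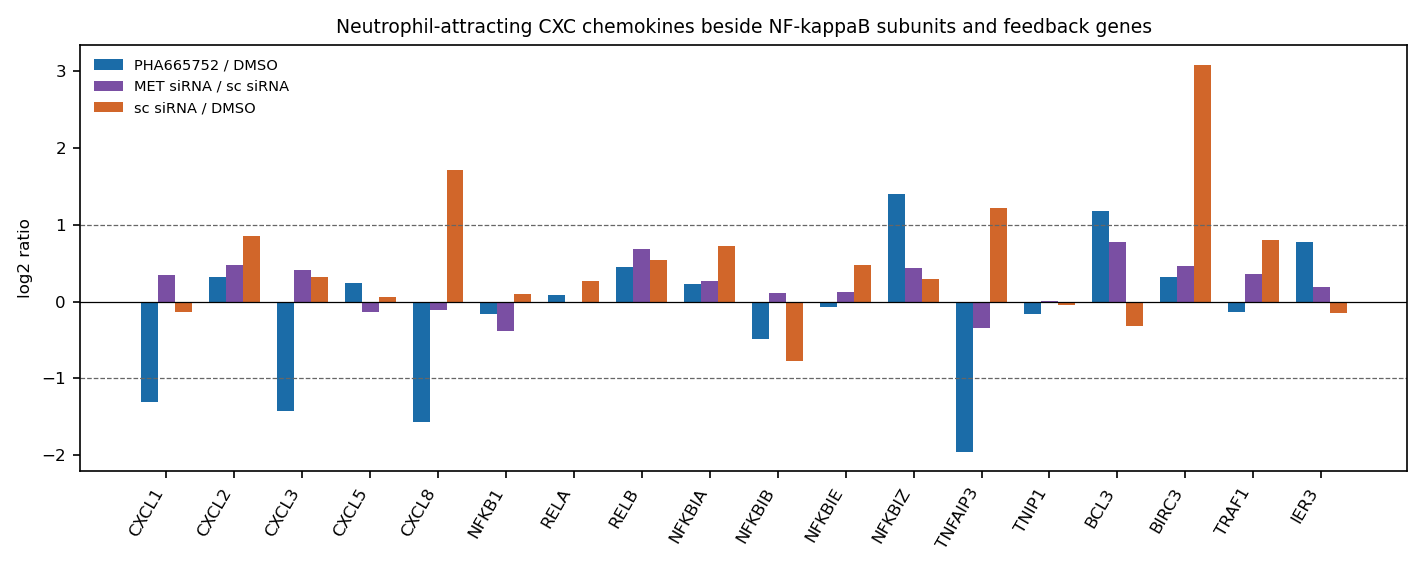
Log2 ratio (y axis) of the measured neutrophil-attracting CXC chemokines and of 13 NF-kappaB subunits, inhibitors and feedback genes in the 3 pairs of arrays, with dashed lines at 2-fold. Below -1 with PHA665752 are CXCL1, CXCL3, CXCL8 and TNFAIP3, while NFKBIZ and BCL3 stand above 1.

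The mRNAs of several of these chemokines are short-lived, through AU-rich elements that recruit decay factors. Of 7 regulators of such decay, 6 had a value. HNRNPD (AUF1), which binds AU-rich elements, was the only one past 2-fold with PHA665752, and narrowly so (log2 ratio -1.01, 2.01-fold lower). That is 16.7% of the genes, beside 6.14% of all named genes lower. Every log2 ratio in this pair shifted by -0.246 with 50th percentile scaling. The shift was 0.043 with the 75th percentile of probes well above background on all arrays. Which of these genes pass 2-fold therefore depends on the scaling. ELAVL1 (HuR), a stabilising factor, was at -0.86 and KHSRP, a decay factor, at -0.82. ZFP36L2 was at -0.58, while ZFP36L1 and ZC3H12A (regnase-1) were at 0.45 and 0.66. The median over the 6 was -0.70 with PHA665752, -0.13 with MET siRNA and -0.060 with sc siRNA against DMSO, and none passed 2-fold in the latter pairs.

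Of 9 cytokines that induce these chemokines or are made with them, 4 were higher and 1 was lower by more than 2-fold with PHA665752, beside 10.0% and 6.14% of all named genes. IL6, a cytokine of the acute phase response, had signals of 23.2 in DMSO, 54.2 in PHA665752, 144 in sc siRNA and 347 in MET siRNA cells. It was higher in each of the 3 pairs, by log2 ratios of 1.44, 1.22 and 2.89. IL1B, an inducer of CXCL8, was 2.15-fold higher with PHA665752 at signals of 13.4 in DMSO and 24.7 in inhibitor-treated cells. IL1A and IL17C gave bounds, at least 3.44-fold and at least 3.32-fold higher, at signals of 32.2 and 32.3 with PHA665752. The signals of IL1A, IL1B and IL17C lie near the lowest well above background, 10.8 with DMSO and 12.3 with PHA665752. Alternatives such as normexp correction were reported for member probes only, not for these genes. CSF2 (GM-CSF) moved the other way, from 157 with DMSO to 8.71 with PHA665752, where it was not well above background, and was at least 11.0-fold lower. With MET siRNA, IL6 was higher and CSF2 lower by more than 2-fold (CSF2 log2 ratio -1.29, median of the 5 measured 0.34). Each is 11.1% of the 9, beside 1.48% higher and 0.507% lower of all named genes. With sc siRNA against DMSO, IL6, IL32 (log2 ratio 1.42) and IL17C (at least 2.19-fold) were higher and none was lower, with a median of 0.63 over 7. That is 33.3% of the 9 higher, beside 2.2% higher and 0.88% lower of all named genes.

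The interferon-induced chemokines were measurable on the siRNA arrays and on neither of the others. CXCL10 was measured by 2 probes (NM_001565). Probe A_24_P303091 gave signals of 2.40 in DMSO, 2.60 in PHA665752, 111.0 in sc siRNA and 307 in MET siRNA cells. The other, A_33_P3343175, gave 2.35, 2.55, 84.3 and 222. Neither probe was well above background with DMSO or PHA665752, and both were on each siRNA array, with MET siRNA the higher. Hence PHA665752 and DMSO could not be compared for CXCL10 at this sensitivity. CXCL10 was 2.68-fold higher with MET siRNA than with sc siRNA by the first probe (log2 ratio 1.42, rank 234 of 21454) and 2.55-fold by the second (1.35). The second came to 0.90 with normexp correction, inside 2-fold, while the first stayed past it in all 9 alternatives, at 1.08 to 1.47. Against DMSO, sc siRNA gave at least 12.2-fold and at least 9.27-fold higher values, at ranks 33 and 53 of 23629. These bounds hold for the reported processing, and with normexp correction the log2 values were 1.68 and 1.46 in place of 3.61 and 3.21, still past 2-fold.

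CXCL11, which shares the receptor CXCR3 with CXCL10, gave signals of 10.6 in DMSO, 2.63 in PHA665752, 205 in sc siRNA and 262 in MET siRNA cells (probe A_23_P125278, NM_005409). It too was not well above background without siRNA. It was at least 22.6-fold higher with sc siRNA than with DMSO, at rank 6 of 23629 probes, a bound of 4.50 on the log2 scale that became 2.22 with normexp correction. Between the siRNA arrays it differed by a log2 ratio of 0.31 (1.24-fold), or 0.0068 when each array was centred on the median of those probes it measured well above background (own-median scaling, a setting chosen after seeing the data). CXCL10 and CXCL11 therefore diverged in that pair, where the first probe of CXCL10 still came to 1.12 under the same setting. The third ligand of CXCR3, CXCL9, was not well above background on any array, with signals of 3.06, 3.14, 5.22 and 11.2.

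The promoters of CXCL10 and CXCL11 are printed because both genes were measurable only in cells that received siRNA. CXCL10 is chr4:76023498-76023727 on the minus strand, 230 bases before the start, and CXCL11 is chr4:76036071-76036220 on the minus strand, 150 bases, from RefSeq on GRCh38.p14. Capitals mark matches to GAAANNGAAA (an interferon response element), the NF-kappaB consensus, GGAATTTCC on the opposite strand, and TGANTCA (AP-1). CXCL10 has consensus matches that begin 177 and 122 bases before the start. The one at 177 and that of CXCL11 overlap GGAATTTCC, and the one at 122 does not.
CXCL10: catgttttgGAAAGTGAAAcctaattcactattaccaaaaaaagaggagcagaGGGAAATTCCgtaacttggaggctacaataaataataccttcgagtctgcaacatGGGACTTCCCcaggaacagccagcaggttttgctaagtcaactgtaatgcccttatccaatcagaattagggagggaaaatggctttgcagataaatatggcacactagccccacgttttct
CXCL11: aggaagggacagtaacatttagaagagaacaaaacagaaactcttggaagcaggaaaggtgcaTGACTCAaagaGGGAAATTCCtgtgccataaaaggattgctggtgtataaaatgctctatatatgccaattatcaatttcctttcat
GAAANNGAAA began 221 bases before the CXCL10 start, and among the 9 chemokine promoters it was present in CXCL10 alone, beside 3.02% of all promoters in the table. The 250 bases before CXCL11 did not hold these letters, which says nothing of sites further away. TGANTCA was present in CXCL8 and CXCL11, 2 of 9, beside 6.57% of all.

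Interferon response genes moved in the same pair of arrays as CXCL10 and CXCL11. Of 13 listed genes, 10 had a value, and 10 of 10 were higher by more than 2-fold with sc siRNA than with DMSO, beside 2.20% of named genes, with a median log2 ratio of 3.74. IRF1, an interferon-induced transcription factor, had signals of 178 in DMSO, 167 in PHA665752, 361 in sc siRNA and 524 in MET siRNA cells. The antiviral genes RSAD2 and MX1 were at log2 ratios of 5.79 and 5.66. With MET siRNA against sc siRNA, none of the 10 passed 2-fold and the median was 0.46, so the difference in CXCL10 in that pair stood beside smaller ones in these genes, 0.49 for IRF1 and at most 0.89, for IFIT2. With PHA665752, IFIT2 (1.12) and MX1 (1.55) were higher and the median was 0.47. The sc siRNA and DMSO cells differed in the siRNA, in the transfection and possibly in time in culture, and these cannot be told apart. Values of the sc siRNA array enter both this pair and the MET siRNA pair, and DMSO enters both this pair and the PHA665752 pair.

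**Figure D5:**
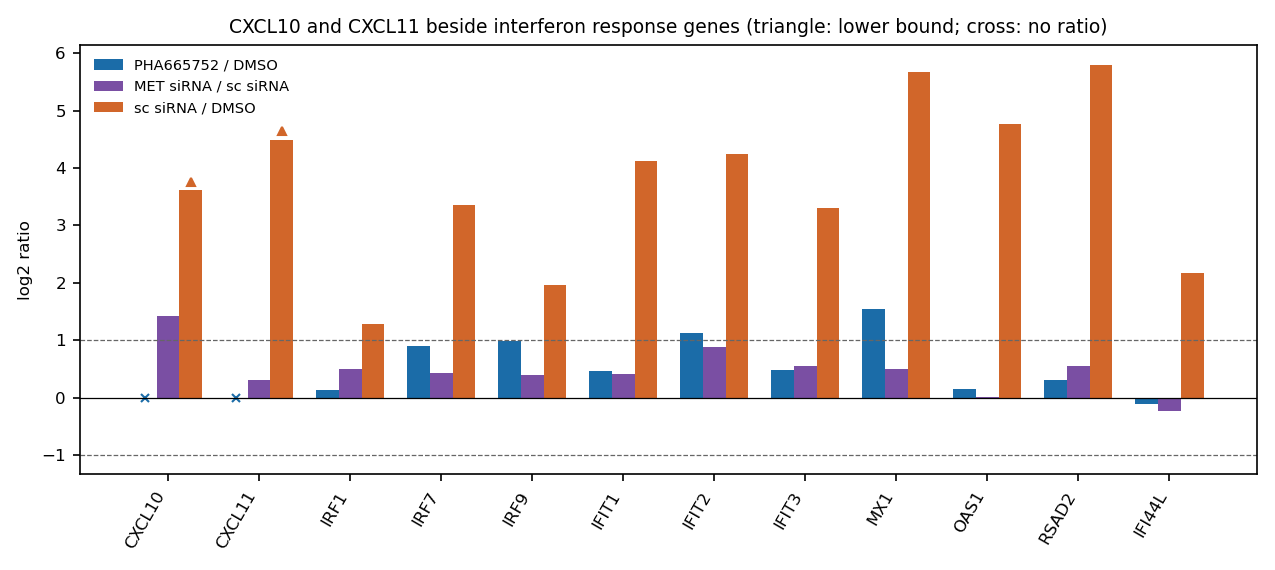
Log2 ratio (y axis) of CXCL10, CXCL11 and 10 interferon response genes in the 3 pairs of arrays; triangles mark lower bounds, crosses mark genes with no ratio with PHA665752, and dashed lines mark 2-fold. All sc siRNA over DMSO bars exceed 1, from 1.28 for IRF1 to 5.79 for RSAD2, and among the MET siRNA bars only that of CXCL10 does.

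CXCL8 was the member measured on every array that also stood apart with sc siRNA. It was 3.28-fold higher with sc siRNA than with DMSO (log2 ratio 1.71, rank 272 of 23629), past 2-fold in all 9 alternatives at 1.21 to 1.72. Between the siRNA arrays its log2 ratio was -0.10, within the spot noise of 0.107. Altogether 4 of the 16 probes were higher by more than 2-fold with sc siRNA, 3 of them as bounds, and 0 were lower, beside 2.12% higher and 0.785% lower over all probes. The median over 9 chemokine genes was 0.73, beside -0.010 over 14274 named genes. CXCL2 was at 0.86 and 0.53 by its probes, CXCL3 at 0.32, and CXCL1 (-0.14 and -0.02) and CXCL5 (0.07) were near 0.

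With MET siRNA, 2 of the 16 probes, both of CXCL10, were higher by more than 2-fold and 0 were lower, beside 1.33% and 0.51% of all probes. None of the neutrophil attractants passed 2-fold. CXCL1 was at log2 ratios of 0.34 and 0.24, CXCL2 at 0.48 and 0.38, CXCL3 at 0.42, CXCL5 at -0.13 and CXCL8 at -0.10. The median over 9 chemokine genes was 0.34, beside -0.017 over 13647 named genes. Own-median scaling shifted every log2 ratio in this pair by -0.30, so that the family median became 0.043 and the second CXCL1 probe turned to -0.063. Directions of the small differences with MET siRNA therefore depend on the scaling.

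To describe the pattern of CXCL8, which had the widest range among member probes well above background on all 4 arrays (3.29 on the log2 scale), named genes were ranked by the Euclidean distance of their centred log2 values on the 4 arrays. The nearest of 13073 genes was ACKR4, a scavenger receptor for other chemokines, at a distance of 0.142 and with signals of 184 in DMSO, 47.7 in PHA665752, 513 in sc siRNA and 462 in MET siRNA cells. PNPT1, a mitochondrial RNA-processing exonuclease, followed at 0.429, PINLYP at 0.444, TNFAIP3 at 0.531 and PTX3, a secreted pattern recognition protein, at 0.653. TNFAIP3 recurs here from the NF-kappaB genes. The distances rest on 4 arrays and are a description.

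The homeostatic chemokine CXCL12 was near the limit of detection. Of its 4 probes, A_33_P3712341 (NM_001033886) was well above background on every array, with signals of 34.3 in DMSO, 42.4 in PHA665752, 33.1 in sc siRNA and 27.1 in MET siRNA cells. Its log2 ratios were 0.52, -0.34 and 0.20 for the inhibitor, MET siRNA and sc siRNA pairs, at a spot noise of 0.255, and with normexp correction the MET siRNA value turned to 0.057. A_33_P3372840 (NM_001033886), A_24_P412156 (NM_000609) and A_23_P202448 (NM_199168) were not well above background on any array and lay between 2.27 and 9.01. The last was spotted 10 times, which shows the scatter at this level, with single spots from 3.19 to 11.8 (median 5.89) on the DMSO array and from 3.07 to 14.1 (median 6.91) on the PHA665752 array. With sc siRNA its 9 usable spots ran from 2.26 to 7.17 (median 3.40), and with MET siRNA its spots ran from 3.66 to 15.4 (median 4.13).

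The transmembrane chemokine CXCL16 was measured on every array, with signals of 235 in DMSO, 312 in PHA665752, 326 in sc siRNA and 435 in MET siRNA cells (probe A_33_P3351249, NM_001100812). DMSO was the lowest and MET siRNA the highest. No pair passed 2-fold, with log2 ratios of 0.63 (1.54-fold) for PHA665752, 0.37 (1.29-fold) for MET siRNA and 0.73 (1.66-fold) for sc siRNA. These exceed the spot noise of 0.0783, and with own-median scaling the MET siRNA value was 0.067. Of the proteases that shed CXCL16, ADAM10 was flat with PHA665752 (0.07) and ADAM17 was at 0.80.

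Among 5 proteases linked to chemokine processing, DPP4 had the widest change. DPP4 is a surface peptidase that truncates CXCL10, CXCL11 and CXCL12 and so weakens them. Its signals were 150 in DMSO, 1670 in PHA665752, 164 in sc siRNA and 525 in MET siRNA cells. It was 12.9-fold higher with PHA665752 (log2 ratio 3.69, rank 16 of 23471) and 3.1-fold higher with MET siRNA (1.63), and at 0.38 with sc siRNA against DMSO. CTSC, which activates the serine proteases of leukocyte granules, was lower with the inhibitor (log2 ratio -1.26) and near 0 with MET siRNA (-0.12). MMP9, which trims CXCL8, was at 0.14 and 0.0061. Thus 1 protease was higher and 1 lower past 2-fold with PHA665752, and 1 was higher with MET siRNA (medians 0.14 and 0.0061). None was past 2-fold with sc siRNA (median 0.12).

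Receptors for the chemokines were sparse in these cells. Of 8 receptor genes, CXCR1 to CXCR6 and ACKR1 were not well above background on any array. ACKR3, a scavenging receptor for CXCL11 and CXCL12, was the exception, with signals of 896 in DMSO, 2771 in PHA665752, 801 in sc siRNA and 936 in MET siRNA cells. It was 3.59-fold higher with PHA665752 (log2 ratio 1.84) and at 0.18 and 0.09 in the MET siRNA and sc siRNA pairs. Of 7 other CXC ligands, PF4 (platelet factor 4) was well above background, with signals of 205, 52.2, 210 and 155 in the same order. PF4 resembled CXCL1 and CXCL3 in having its lowest signal with the inhibitor, 3.38-fold below DMSO (log2 ratio -1.76). With MET siRNA it was at -0.49 and with sc siRNA against DMSO at 0.29. The others, CXCL9, CXCL13, CXCL14, CXCL17, PF4V1 and PPBP, were not well above background on any array.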

How the data were processed

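Total RNA of Hs746T cells was hybridised to 4 Agilent arrays, 1 per condition, and samples were grouped by the submitters' treatment labels. The deposited intensity of each spot is the linear processed signal of Feature Extraction (version 11.5.1.1 per the file headers), after background subtraction and detrending by the authors, with no normalization between arrays. Control spots and spots marked as outliers were left out, log2 signals were averaged over repeated spots, and each array's 75th percentile, 990.1 for DMSO, 853.5 for PHA665752, 830.8 for sc siRNA and 858.2 for MET siRNA, was subtracted. A probe counted as well above background by Feature Extraction's mark. The series matrix, deposited as intensity too, served as an alternative.

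Of the probes, 25771 (75.5%) were named through RefSeq accessions from a GRCh38.p14 table, which served for names and promoter sequences only, the array's own annotation being on a different build. For gene lists, a gene was represented by its probe of highest mean scaled signal among probes with a value on every array. The pairs compared were PHA665752 over DMSO, MET siRNA over sc siRNA and sc siRNA over DMSO. With 1 array per condition there was no test, and precision is limited by this number. Shares of probes past 2-fold have all probes as denominator. The members and the 12 context lists (other CXC ligands, CXC receptors, proteases, mRNA decay, NF-kappaB, interferon response, cytokines, and epithelial, mesenchymal, leukocyte, endothelial and neutrophil markers) were chosen with earlier results of these data known. Some listed genes are not reported here and were left out of their lists' counts and medians. Every member probe was named. From the ligand, receptor, protease and decay lists each gene well above background was named, and from the others at most 6 genes past 2-fold with PHA665752 or MET siRNA. For the member with the widest range over the arrays, the 5 named genes of most similar pattern were taken. Other list genes named in the text were chosen after their values were seen.

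Alternatives were scaling by the 50th percentile, by the 75th percentile of probes well above background on all arrays or by quantiles, normexp background correction (offset 50, on the median spot signal), no filter on dim probes, restriction to probes measured above background on each array of a pair, outlier spots kept, the series matrix, a 1.5-fold threshold, the median over a gene's probes and, chosen after seeing the data, own-median scaling, which centres each array on its own probes well above background. The calculation of ratios and bounds was tested on simulated data. Python 3.11.15, numpy 2.4.6, pandas 2.3.3, matplotlib 3.10.9, R 4.3.3 and limma 3.58.1 were used.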

Additional observations from a re-analysis of the deposited data

Results flagged for a closer look

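The inhibitor and the siRNA moved 4 probes of neutrophil-attracting chemokines in opposite directions, lower with PHA665752 than with DMSO and higher with MET siRNA than with sc siRNA. The log2 ratio with PHA665752 minus that with MET siRNA was -1.65 for CXCL1 by probe A_23_P7144, -1.60 for CXCL1 by A_33_P3330264, -1.07 for CXCL2 by A_24_P257416 and -1.85 for CXCL3. With 1 array per condition the difference was not tested. The share of all probes with such a gap was not computed, so the count does not set these chemokines apart from other genes. Over all probes with a ratio, the 5th to 95th percentile ran from -1.228 to 1.582 with PHA665752 and from -0.492 to 0.605 with MET siRNA. The other CXCL2 probe was higher in both pairs, at 0.32 and 0.48. The MET siRNA values of these probes were small, at 0.24 to 0.42, and the second CXCL1 probe turned to -0.063 when arrays were scaled by their own median, where inhibitor and siRNA would share a direction. Under that setting CXCL1 by A_23_P7144 came to 0.0426, CXCL2 by A_24_P257416 to 0.0835 and CXCL3 to 0.1188. Their spot noise was 0.0665, 0.0783 and 0.107, so these opposite directions were not clear either.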

How the results depend on the processing

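No paired analysis was possible because each condition had 1 array. With normexp correction the number of chemokine probes past 2-fold was 2 with PHA665752 in place of 4 and 1 with MET siRNA in place of 2. That setting changes the signal used, the background correction and the offset together, and the cause was not tested. When probes had to be well above background on both arrays, the count with sc siRNA against DMSO was 1 in place of 4, because the bounds of CXCL10 and CXCL11 were left out by construction. The other recomputed counts stayed within 1.5 times those reported. The family median ranged over the alternatives from -0.18 to 0.28 with PHA665752, from 0.043 to 0.39 with MET siRNA and from 0.32 to 0.74 with sc siRNA, the lowest of the last when probes had to be well above background on both arrays. At a threshold of 1.5-fold, the counts were 6, 2 and 6 in the order PHA665752, MET siRNA and sc siRNA. The share of all probes past 1.5-fold was not computed, so these counts cannot be set against the whole array. Scaling by the 50th percentile shifted every log2 ratio with PHA665752 by -0.246, which took the family median from 0.24 to -0.0066, and own-median scaling took the MET siRNA median from 0.34 to 0.043. Of the ratios of single probes, 264 recomputed values moved by less than 2 times the SD from spot noise and 30 by more, and none that was past 2-fold changed sign. The 264 include values that could not move, those under the settings on dim probes for probes well above background on both arrays. Signal limits CXCL6, 3 of the 4 CXCL12 probes, CXCL10 and CXCL11 without siRNA, and CXCL3 and CXCL8 with PHA665752.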
